A study of Mus musculus with 146 samples.

Results

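In single germ cells of the newborn mouse ovary, 10 genes that were proposed as early meiotic genes lost on the way to the follicle were followed: Stra8, Meioc, Ythdc2, Mtl5, Dmrtc2, Adad1, Tex101, Top2a, Aspa and Maoa. They were chosen by name among 52605 gene symbols, because earlier results of the same cells had shown them lower in the later cells. Their loss is therefore described here and not tested. There were 146 libraries, each from a single cell picked as a germ cell, made by Smart-seq2 (full-length cDNA amplification from poly(A) RNA) with spike-in RNA. The cells came from the ovaries of C57BL/6J female pups of 1 litter, digested together, at age 0.5 day, with no treatment or altered genotype named. Ovaries were dispersed with trypsin and DNase I, germ cells were picked by size with a mouth pipette, and cDNAs positive for the somatic gene Foxl2 had been set aside before sequencing. No label ties a cell to a pup or a plate, so all cells form 1 sample. Values are given without tests, and the intervals cover the counting of cells or reads only.

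Germ cells of the fetal ovary enter meiosis after retinoic acid and BMP signals switch on Stra8, a regulator that acts together with Meiosin. The RNA-binding proteins MEIOC and YTHDC2 act together to clear transcripts of the mitotic programme, so that prophase I can proceed. By birth most oocytes approach the diplotene arrest, their cysts break apart, and single oocytes become enclosed in primordial follicles. Several of the genes here are known mainly from the testis, where Mtl5, Dmrtc2, Adad1 and Tex101 act later in spermatogenesis.

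Germ cells were those with at least 1 TPM of Ddx4, the germ cell RNA helicase. This kept all but 1 of the cells, the lowest of them at 7.49 TPM, and left out the library with 0 TPM. Some libraries were near copies of each other. In 7 pairs the Pearson correlation of log2(TPM + 1) over 18442 genes was 0.984 to 0.993, whereas no other pair passed 0.824. Chi-square of the read counts was 1.91 to 5.17 per gene within these pairs and 187 to 295 within the 10 pairs next in correlation. The labels do not say that a cell was sequenced more than once. All libraries were kept and are called cells below, so that a cell may be counted more than once, with 5 of the 7 second libraries in the second bin of the order used below and 2 in the third. With the second library of each pair left out, 8 genes again fell by at least 2-fold and 5 had a full loss, as with all libraries. Of all coding genes with a mean of at least 1 TPM, 24.9% then fell as much, against 24.5% with all libraries. Between 4074810 and 26855300 reads were assigned to genes per cell, with a median of 9498860. The cells were ordered along the first principal component of 20 germ cell genes, those that the study names for its clustering together with Taf4b. None of them is among the 10 genes, but Sycp2, Stag3 and Taf7l are meiotic genes that decline along the order themselves. Cells at the end of this order, called late here, were those with high zona pellucida and maternal transcripts. The order was cut into 5 bins of 29 cells. The mean of Zp3, one of the ordering genes, was 0.117, 0.768, 4.11, 82.4 and 594 TPM from the first to the last bin. Taf4b declined as well, from a mean of 56.5 TPM in the first bin to 11.2 TPM in the last. It was kept in the alternative order that left out Sycp2, Stag3 and Taf7l. Of the 6 germ markers, Dazl and Sycp3 were at 10 TPM or more in all the cells kept, and 1 cell was below that for Ddx4, 3 for Figla, 7 for Mael and 21 for Dppa3. From the first to the last bin the means of Ddx4 (304 to 105.7 TPM), Dazl (604 to 287 TPM) and Mael (809 to 215 TPM) were at least 2-fold lower, Sycp3 lay within 2-fold and Dppa3 was higher (24.5 to 1845 TPM). Of the 10 pregranulosa markers, Wnt4 was on at 1 TPM in 10 cells, Kitl in 8, Foxl2, Lgr5 and Krt19 in 5 each and Wnt6 in none. Kitl reached 81.1 TPM in 1 cell of the third bin, and the summed level had medians between 0.314 and 0.87 TPM in the 5 bins and a highest value of 81.6 TPM. The summed level of the 8 stromal markers had a median of 6.92 TPM in the first bin and 0.575 TPM in the last, and Nr2f2 alone had medians of 6.45 and 0.0539 TPM. Globin transcripts were found in many libraries. The summed blood and endothelial markers had medians of 87.9 TPM in the first bin and 31.2 TPM in the last, and reached 324973 TPM in 1 cell of the first bin. The part of these markers in the results was not tested. Without that cell the number of genes that fell by at least 2-fold was 8, as with it, beside 24.9% of the coding genes.

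Between the first and the last bin, 8 of the 10 genes were at least 2-fold lower in mean TPM, with 1 TPM added to each mean. Among all 11567 coding genes tested (mean of at least 1 TPM, ordering genes left out) 24.5% were as much lower. A full loss, meaning at least 1 TPM in at least 50% of first-bin cells and in at most 20% of last-bin cells, was found for Mtl5, Meioc, Aspa, Dmrtc2 and Adad1, 5 of the 10, and for 0.700% of all coding genes tested. As the genes were picked with their loss known, nothing is read from either count. Stra8 did not pass the filter on the mean and went against the description of the group, as it was off in nearly all cells from the beginning. Ythdc2, Top2a and Tex101 were still on in most of the last cells.

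The position at which each gene switched off was taken as the step that best split its log2(TPM + 1) values into a high and then a low level, given as the percentage of cells before it. Top2a stepped down after 12.4% of the cells and Mtl5 after 13.1%. Meioc followed at 30.3%, Ythdc2 at 37.9% and Maoa at 38.6%. Aspa at 51.7%, Dmrtc2 at 52.4% and Adad1 at 55.2% lay close together near the middle of the order. Tex101 was the last, at 75.2%. These positions depended on how they were taken. Over the other orders, scalings, fits and cells left out, Mtl5 lay between 12.5% and 35.9% and Meioc between 15.2% and 37.9%. Dmrtc2 ranged from 32.1% to 58.6%, Aspa from 33.4% to 59.3% and Tex101 from 46.2% to 87.6%. Top2a ranged from 9.72% to 49.7%.

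**Figure D1:**
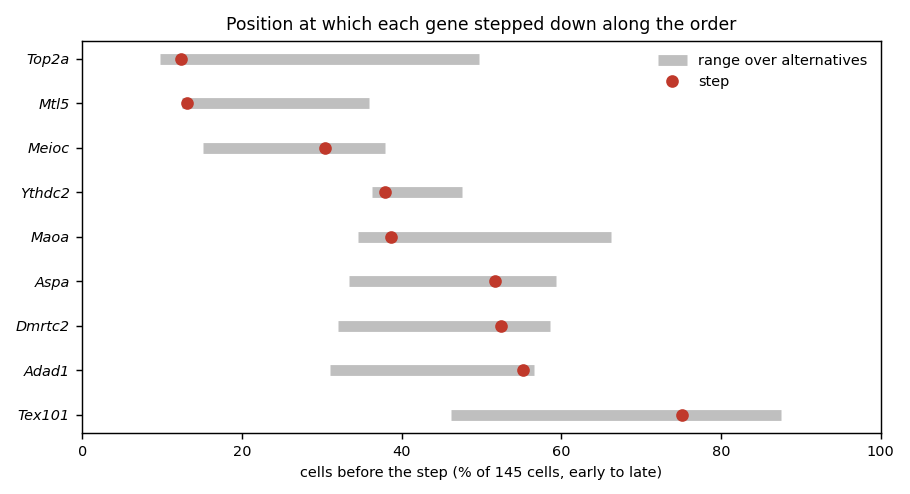
The position of the downward step of 9 genes, as the percentage of cells before it (x axis), from early at the left to late at the right. Red points are the steps, and grey bars are the range over the other ways of ordering, scaling or fitting and of leaving out cells. Mtl5 lies at 13.1% and Tex101 at 75.2%, and the grey bars of Top2a, Maoa and Tex101 are long.

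The genes lie on 7 chromosomes. In GENCODE M21 (GRCm38), Meioc spans chr11:102663716-102682237 on the plus strand, and Mtl5, now named Tesmin, chr19:3388857-3407823 on the plus strand. Dmrtc2 (chr7:24870057-24877651, plus) and Tex101 (chr7:24668007-24676675, minus) are both on chromosome 7. Stra8 (chr6:34920163-34939344), Adad1 (chr3:37063527-37121930) and Maoa (chrX:16619698-16687818) are on the plus strand. Top2a (chr11:98992943-99024189) and Aspa (chr11:73304992-73329596) are on the minus strand of chromosome 11.

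The bases before the start sites of Mtl5 and Meioc, which were lost early, of Tex101, the last to step down, and of Dmrtc2, lost in between, are shown so that genes lost at different points of the order can be set side by side. The first 3 are the 250 bases upstream of the RefSeq start (GRCm38.p6), and the last is the whole gap between Dmrtc2 and its neighbour Lypd4. They are Mtl5 at chr19:3388607-3388856 (plus strand), Meioc at chr11:102665335-102665584 (plus strand), Tex101 at chr7:24672051-24672300 (minus strand) and the gap at chr7:24869942-24870056 (plus strand). The windows of Meioc and Tex101 lie in introns of longer GENCODE transcripts of the same genes. Capitals mark matches, on either strand, to CCAAT or to the GC box GGGCGG.
Mtl5: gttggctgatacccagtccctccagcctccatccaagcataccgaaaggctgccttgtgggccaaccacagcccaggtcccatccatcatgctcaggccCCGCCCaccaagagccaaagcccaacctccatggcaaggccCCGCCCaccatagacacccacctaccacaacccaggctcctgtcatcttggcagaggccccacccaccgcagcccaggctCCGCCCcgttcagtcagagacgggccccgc
Meioc: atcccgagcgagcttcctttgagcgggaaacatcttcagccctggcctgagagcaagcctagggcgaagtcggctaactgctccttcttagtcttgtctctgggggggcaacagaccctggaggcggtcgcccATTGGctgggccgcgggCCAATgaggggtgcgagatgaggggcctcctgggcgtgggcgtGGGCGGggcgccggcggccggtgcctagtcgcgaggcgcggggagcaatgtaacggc
Tex101: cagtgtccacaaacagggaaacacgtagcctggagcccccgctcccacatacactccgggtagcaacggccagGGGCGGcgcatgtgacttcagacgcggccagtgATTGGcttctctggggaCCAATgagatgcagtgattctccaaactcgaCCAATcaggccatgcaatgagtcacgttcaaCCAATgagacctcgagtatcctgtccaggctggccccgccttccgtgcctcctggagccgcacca
Lypd4 to Dmrtc2: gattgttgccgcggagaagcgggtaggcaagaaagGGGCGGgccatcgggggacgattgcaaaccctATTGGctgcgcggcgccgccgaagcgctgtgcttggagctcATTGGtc

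Promoters were listed for 8 of the 10 genes, and 11 motifs were searched on both strands in the upstream bases. A CCAAT box was present in 6 of the 8 genes and in 33.8% of all 32851 promoters of the table. The GC box GGGCGG was likewise in 6 of the 8 and in 32.7% of all. Tex101, Dmrtc2 and Stra8 held 4 CCAAT matches each and Top2a held 6, where 0.84% of all promoters held 4 or more. For Dmrtc2 the whole 250 bases were searched. Only 2 of its CCAAT matches lie in the gap shown, and the others lie beyond it, within Lypd4. Meioc held 2, and Mtl5 none but 3 GC boxes in the window shown. The site AGGTCA of retinoic acid receptors matched 2 genes, against 14% of all promoters. Stra8 had 2 matches and Dmrtc2 had 1, which also lies beyond the gap shown. The cell cycle element TTTGAA matched Top2a (15.99% of all), and the E-box CACGTG matched the second listed promoter of Mtl5 (6.02% of all). No match was found to CNCCTCAG, the letters associated with STRA8 and Meiosin (6.42% of all), to TTCCCGCC of E2F (1.86%), to AACNGTT of MYB (3.796%), to TGACGTCA (1.55%), to TTTAAA (12.1%) or to the retinoic acid response element with a spacing of 5, a direct repeat of AGGTCA (0.00913%). A match is a description of letters only.

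Of the genes of meiotic initiation, Stra8, the regulator of the entry into meiosis, was nearly silent. It reached 1 TPM in 11 cells of all, and in 1, 2, 2, 4 and 2 of the 29 cells of the successive bins. Its mean TPM per bin was 0.853, 1.08, 0.926, 0.436 and 0.211. The highest cell, in the second bin, had 28.9 TPM. The few cells with Stra8 were scattered over the order, and the gene showed no loss that could be placed. Its step at 6.90% moved to 90.97% when 1 cell of the last bin, cell 19, was left out, and its log2 ratio of -0.61 became 0.27 without cell 51 of the first bin.

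Meioc, the partner of YTHDC2 in clearing mitotic transcripts, had the most negative ratio of the 10 genes when 1 TPM was added to the means. The lowest, median and highest cells were 0, 117.6 and 1219 TPM in the first bin, 0, 17.5 and 202 TPM in the second, and 0, 0.0224 and 65.6 TPM in the third. In the last bin the median was 0.0155 TPM and the highest cell 11.02 TPM. Its mean went from 244 TPM through 34.4, 7.85 and 1.82 to 0.731 TPM, a log2 ratio of -7.14 from first to last bin, which ranked 2 of 11567 from the lowest. With 0.1 TPM added, the ratio of Mtl5 (-8.62) was below that of Meioc (-8.20), and the mean log2(TPM + 1) differed more for Adad1 (-6.71), Dmrtc2 (-6.52), Maoa (-6.25) and Tex101 (-6.00) than for Meioc (-5.73). Meioc was on in 24, 18, 9, 2 and 3 of the 29 cells. Already in the first bin 5 of the 29 cells lay below 1 TPM, 4 of them with no read, so that high cells and cells with none stood side by side. In the last bin 14 of the 29 cells had no Meioc read.

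Ythdc2, an RNA helicase that reads m6A, did not follow its partner. Its lowest, median and highest cells were 0, 25.8 and 71.7 TPM in the first bin and 0, 13.2 and 78.5 TPM in the last. The mean was 29.4, 26.8, 16.3, 10.3 and 15.6 TPM, so that the lowest bin was the fourth and not the last. The gene was on in 28, 25, 24, 19 and 24 of 29 cells, and the log2 ratio of -0.88 lay within 2-fold. Without cell 25 of the last bin, which had 78.5 TPM, the ratio was -1.16, past 2-fold. Cells with and without Ythdc2 overlapped throughout the order. Of the 56 cells with Meioc on, 53 had Ythdc2 on, whereas 67 of the 120 cells with Ythdc2 had no Meioc at 1 TPM.

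**Figure D2:**
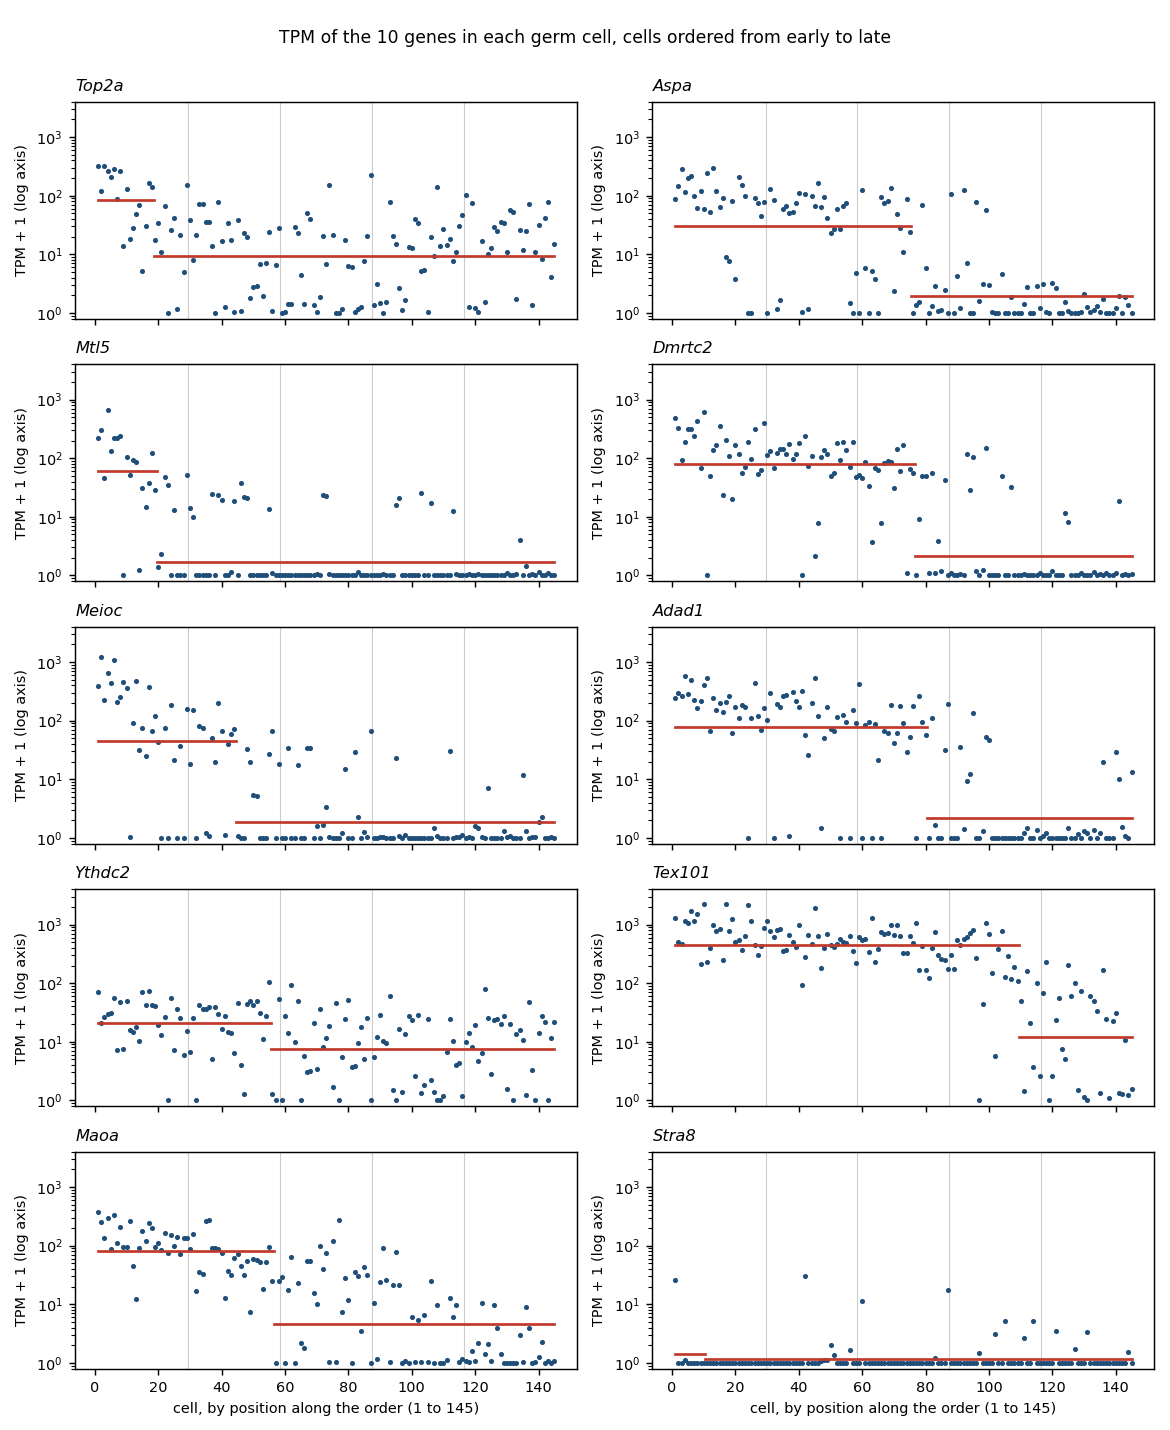
TPM + 1 (y axis, log scale) of each of the 10 genes in each germ cell, placed by position along the order (x axis); grey lines part the 5 bins and red lines are the fitted high and low levels. Mtl5 and Meioc are lost toward the left, Dmrtc2, Adad1 and Aspa near the middle. Tex101 steps down at the right but, like Top2a and Ythdc2, stays on in most late cells.

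Mtl5, which encodes tesmin, a protein with the cysteine-rich domain also found in LIN54, was lost early, with Meioc. Its lowest, median and highest cells were 0, 45.2 and 661 TPM in the first bin and 0, 0 and 36.1 TPM in the second. The mean went from 94.6 TPM to 6.68, 1.53, 2.997 and 0.141 TPM, a log2 ratio of -6.39. It was on in 22, 10, 2, 5 and 1 of 29 cells. The 5 cells of the fourth bin all had over 10 TPM, with a median of 16.5 TPM among them, so Mtl5 was not lost evenly. In the last bin no cell reached 10 TPM, a count of 0 of 29, which allows a share of up to 10.3% by the rule of 3 counts and up to 11.9% by the exact interval.

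Dmrtc2, a DM domain protein (DMRT7) needed for male meiosis, stayed on in most cells up to the third bin. Its level declined from the first bin on, whereas the share of cells with it on fell within a short stretch. The medians of the 5 bins were 165, 115.1, 47.8, 0 and 0 TPM, with the highest cells at 622, 241, 165, 151 and 17.8 TPM. It was on in 28, 28, 23, 6 and 3 of 29 cells. The share of cells dropped most between the third bin (79.3%, interval 60.3% to 92%) and the fourth (20.7%, 7.99% to 39.7%). The mean went from 195 TPM in the first bin to 1.25 TPM in the last, a log2 ratio of -6.45. Before its step 73 of 76 cells had the gene on and after it 15 of 69.

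Adad1, an RNA-binding nuclear protein with an adenosine deaminase domain, followed almost the same course. Its medians were 199.7, 121.1, 60.6, 0 and 0 TPM, and its highest cells 573, 535, 424, 132.9 and 28.04 TPM. It was on in 28, 24, 21, 6 and 4 of 29 cells, so that the drop again fell between the third bin (72.4%) and the fourth (20.7%). The log2 ratio of the means, 226 to 2.43 TPM, was -6.05. In the cells that kept it the level was lower too, with a median of 204 TPM among the 28 first-bin cells on and 15.5 TPM among the 4 of the last bin.

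Tex101, a germ cell surface protein with a lipid anchor, was the most abundant of the 10 genes on the TPM scale and the last to fall. The lowest, median and highest cells were 209, 773 and 2252 TPM in the first bin, 93.1, 502 and 1912 TPM in the second, and 123.4, 476 and 1286 TPM in the third. Every cell of these bins had it on. In the fourth bin the range opened to 0 to 1065 TPM around a median of 176 TPM, and in the last bin it was 0 to 231 TPM around 21.6 TPM. The lowest first-bin cell was below the highest last-bin cell, so the first and the last bin overlapped. Tex101 remained on in 27 and then 19 of 29 cells. Its log2 ratio of -4.40 (mean 910.1 to 42.3 TPM) ranked 31 of 11567, and it was no full loss.

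Top2a, the topoisomerase that untangles replicated chromosomes, fell early and then stayed. Its medians in the 5 bins were 47.7, 16, 3.43, 11.9 and 16.2 TPM, with the lowest in the third bin. The first bin held the highest cell, 326 TPM, and a mean of 98.8 TPM, against 20.0, 21.6, 18.97 and 26.4 TPM in the others. Cells with it on numbered 27, 22, 15, 22 and 23 of 29 cells. The first 18 cells of the order all had Top2a on, at a fitted level of 83.6 TPM, and the level after the step was 8.32 TPM. The log2 ratio from the first to the last bin was -1.86, and 912 of 11567 was its rank. The step moved to 24.3% without cell 42 of the first bin, which had 0 TPM. Top2a was thus reduced after the earliest cells but not lost.

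Aspa, which splits N-acetylaspartate into acetate and aspartate, was lost from bin to bin without a sharp break. The medians were 89.3, 57.3, 2.85, 0.234 and 0.0485 TPM and the highest cells 301, 163, 133.2, 125.9 and 2.19 TPM. It was on in 27, 22, 18, 11 and 4 of 29 cells, and no last-bin cell reached 10 TPM. The mean went from 106.5 to 0.397 TPM, a log2 ratio of -6.27, or -5.07 with reads scaled to the same total, a scale free of the deposited length of Aspa, which differed between the bins. Of the cells of the fourth bin 4 still had over 10 TPM while the bin's median was near 0.

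Maoa, the monoamine oxidase on the X chromosome, declined gradually as well. The lowest, median and highest cells were 11.3, 131.7 and 379 TPM in the first bin, so every early cell had it above 10 TPM. The medians of the others were 50.9, 21.7, 4.42 and 0.071 TPM, and the highest cell of the last bin had 9.60 TPM, below the lowest of the first bin. The first and the last bin therefore did not overlap, by a narrow gap. How many of all coding genes did not overlap either was not counted. As the gene was chosen with its loss known, nothing is read from this. Maoa was on in 29, 28, 22, 15 and 9 of 29 cells, and its log2 ratio was -6.01. As 9 of the last 29 cells (31.03%, interval 15.3% to 50.8%) were above 1 TPM, it did not meet the limit for a full loss. Its step was poorly placed, moving by more than 5 points with any of 12 single cells left out and to 65.97% without cell 22 of the third bin.

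**Figure D3:**
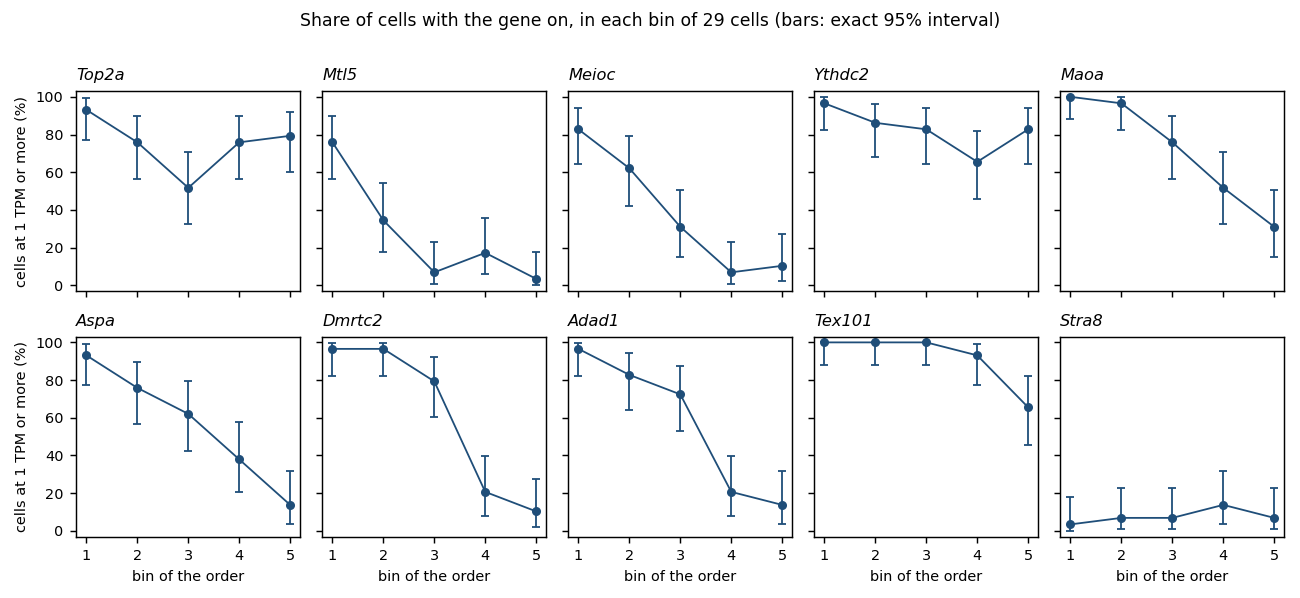
Percentage of cells with at least 1 TPM of each gene (y axis) in each of the 5 bins of 29 cells along the order (x axis), with exact 95% intervals for counting cells. Dmrtc2 and Adad1 drop from 79.3% and 72.4% to 20.7% between the third and the fourth bin, Tex101 stays at 65.5% or more, and Stra8 never passes 13.8%.

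The coarse sequence of losses was mostly kept when cells were ordered, scaled or split in other ways. These settings are not independent, as they share cells and, except for an order from 2000 variable genes, ordering genes. The rho of positions with the order used here was 0.989 without the meiotic ordering genes and 0.983 with diffusion pseudotime. It was 0.804 with 2000 variable genes. Mtl5 and Meioc both came before Aspa, Dmrtc2 and Adad1 in 13 of 13 settings, the one used here included, and with each of the cells left out in turn. The group Aspa, Dmrtc2 and Adad1 came before Tex101 in 12 of the 13 settings, the exception being the order from 2000 variable genes. There Tex101 stepped down at 55.2%, before Aspa at 59.3%, and Adad1 at 40% came only shortly after Meioc at 37.9%. Mtl5 likewise preceded Meioc in 12 of the 13 settings and with each cell left out in turn, but in several settings by few cells, at 14.5% against 15.2% without the meiotic ordering genes, 19.3% against 20.7% with reads scaled to the same total and 35.9% against 37.9% with 2000 variable genes, and both lay at 20% with diffusion pseudotime. Other fine distinctions did not hold. Dmrtc2 preceded Adad1 in 5 of 13 settings, Aspa preceded Dmrtc2 in 8, Top2a preceded Mtl5 in 8, and Maoa preceded all of Aspa, Dmrtc2 and Adad1 in 8. These neighbours, Mtl5 and Meioc included, are left without an order.

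Without any order, it can be counted which genes were found together in a cell at 10 TPM or more. All 37 cells with Mtl5 also had Tex101, while 89 cells had Tex101 without Mtl5. Tex101 was likewise present in all 60 cells with Aspa and all 82 with Maoa. Of 50 cells with Meioc, 47 had Dmrtc2 and 45 had Adad1, whereas 34 of the 81 cells with Dmrtc2 had no Meioc. Of the same 50 cells with Meioc, 18 had no Aspa, and of the 37 with Mtl5, 8 had none. Of the cells with Mtl5, 6 had no Dmrtc2 and 6 had no Adad1. With the second library of each near-copy pair left out, 15 of 46 cells with Meioc had no Aspa and 43 of 46 had Dmrtc2. Dmrtc2 and Adad1, each in 81 cells, were together in 69, and 12 cells had 1 of them without the other in each direction. For Mtl5 and Meioc, 27 cells had both, 10 Mtl5 alone and 23 Meioc alone.

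Across all cells kept, Spearman's rho of TPM was highest for Dmrtc2 with Tex101 (0.71), Adad1 (0.67) and Maoa (0.66). Top2a had rho of 0.39 with Meioc and at most 0.28 with the others, and Stra8 lay between -0.15 and 0.04 with all. The cells share 1 sample and differ in depth, so these values are descriptions. The number of the 10 genes on per cell had medians of 9, 7, 5, 4 and 3 in the 5 bins, with ranges of 6 to 10, 4 to 9, 2 to 9, 0 to 7 and 1 to 6. One count of 0, in the fourth bin, was the only cell with none on.

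Some cells departed from the sequence. Of the 29 first-bin cells, 11 lacked at least 1 of Mtl5, Meioc, Aspa, Maoa, Dmrtc2, Adad1 and Tex101 at 1 TPM, of which 4 lacked more than 1. Cell 16 lacked Adad1, Aspa and Mtl5, although it had 369 TPM of Ddx4 and no Zp3. In the fourth bin 16 of 29 cells kept at least 1 of these genes other than Tex101 at 10 TPM or more, 8 of them several, and cell 3 kept 5. In the last bin 6 of 29 cells kept exactly 1 and none kept more. The last cell of the order had over 10 TPM of Adad1 together with 1454 TPM of Zp3. At that level Adad1 was kept in 3 of the last cells, Dmrtc2 in 2 and Meioc in 1. At 1 TPM some of the last cells kept several, such as cell 87 with Dmrtc2 at 17.8, Adad1 at 8.93, Maoa at 1.26 and Meioc at 1.24 TPM.

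Of the deposited libraries, depth and complexity also varied along the order. The median of reads per cell was 9377060 in the first bin and 10736100 in the last, and the number of genes at 1 TPM or more had medians of 7158 and 8217. Late cells were thus the deeper ones. The share of mitochondrial reads had medians of 5.27%, 6.19%, 5.92%, 7.39% and 7.13% in the 5 bins, and its highest cell went from 9.01% in the first bin to 25.8% in the last. The part of that share in the losses was not tested. After each cell was thinned to 1000000 reads, Meioc kept a read in 24, 20, 10, 2 and 5 of 29 cells and Dmrtc2 in 28, 27, 25, 6 and 4. Without thinning, 15 and 11 of the last 29 cells had at least 1 read of Meioc and Dmrtc2. Aspa and Maoa kept a read after thinning in 11 and 15 of the last 29 cells, more than Mtl5, Meioc, Dmrtc2 and Adad1. The TPM of spike-ins had medians of 11119 in the first bin and 6375 in the last, and dividing by it moved the median log2 ratio of all coding genes tested from -0.26 to 0.43. With either scaling 8 of the 10 genes were at least 2-fold lower. Of all coding genes tested, 24.5% were as much lower with TPM and 11.1% with TPM per spike-in.

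Deposited gene lengths differed between the genes and in part between cells, which bears on TPM. Whether the deposited length is that of the whole transcript or a shorter effective length is not given in the sources used here. It was 353 bases for Tex101 and 4167 for Maoa in the median cell with the gene on, so a read of Tex101 gave more TPM. In summed reads of the first bin, Tex101 had 193184 and Maoa 134099, a smaller gap than that of their mean TPM, 910.1 and 151. For Aspa the median length was 398 bases in the 27 first-bin cells with the gene on and 1390.3 in the 4 such cells of the last bin. With reads scaled to the same total in place of TPM, 8 of the 10 genes were again at least 2-fold lower. Of all coding genes tested, 20.9% were then as much lower. The limits of a full loss were met by 4 of the 10 genes in place of 5.

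In GENCODE, Dmrtc2 and Aspa start next to another gene that faces away from them. Lypd4, a relative of Tex101 in the family of lipid-anchored surface proteins, starts at the other end of the gap shown above, on the strand opposite to Dmrtc2. Its mean TPM was 57.8, 17.5, 4.88, 0.931 and 0.00908 in the 5 bins, and it stepped down at 27.6%, before Dmrtc2 at 52.4%. Of the 40 cells with Lypd4 on, 39 had Dmrtc2 on, whereas 49 cells had Dmrtc2 without Lypd4. Spata22, a protein of meiotic recombination, lies beside Aspa in the same way, its start at position 73329741 of chromosome 11, with mean TPM of 123.04, 106.1, 83.5, 28.1 and 5.91. It stepped down at 59.3%, after Aspa at 51.7%, and 36 cells had Spata22 without Aspa against 7 with Aspa alone. Its closeness rests on the longest transcript of Aspa, which starts at 73329596, whereas the 250 bases upstream of the RefSeq start of Aspa lie at chr11:73324638-73324887. The steps of Lypd4 and Spata22 were taken in the main setting only. In other settings Dmrtc2 ranged from 32.1% to 58.6% and Aspa from 33.4% to 59.3%. Whether the order within the pairs holds in those settings was not tested. Spearman's correlation was 0.59 for the first pair and 0.55 for the second. Il2 overlaps the end of Adad1 on the other strand, and its mean of 5.42 TPM in the first bin and 0.0205 TPM in the last came from 14 cells, 13 of which had Adad1 on. The library kit does not mark strand, so reads of overlapping genes cannot be told apart.

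**Figure D4:**
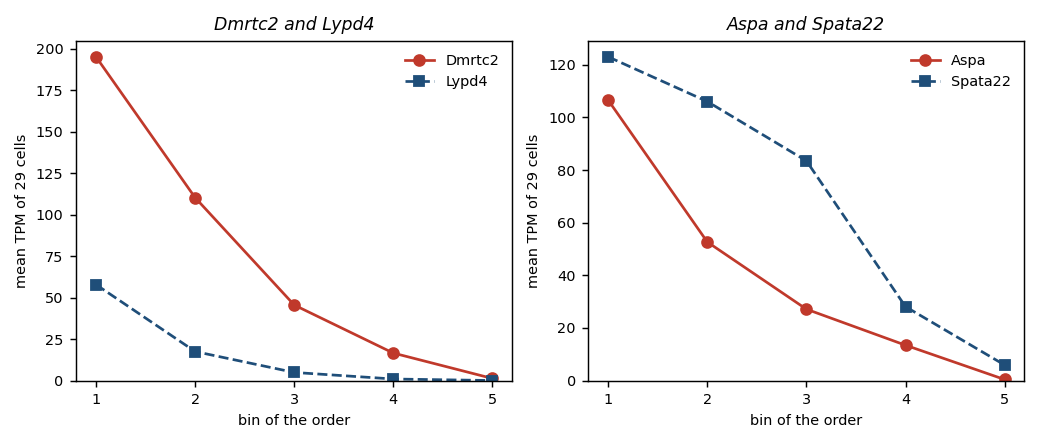
Mean TPM of 29 cells (y axis) in each of the 5 bins of the order (x axis) for the pairs of genes that start next to each other on opposite strands in GENCODE. Lypd4 is at 4.88 TPM in the third bin where Dmrtc2 is at 45.5 TPM, and Spata22 is at 83.5 TPM where Aspa is at 27.1 TPM.

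Other genes of meiotic entry differed among themselves. Of the 14 listed genes at a mean of 1 TPM or more, 6 were at least 2-fold lower in the last bin (24.5% of all coding genes tested were as much lower), 1 was higher (16% of all were as much higher) and 7 lay within 2-fold, with a median log2 ratio of -0.32 against -0.26 over all coding genes tested. The largest losses were Aldh1a2, an enzyme that makes retinoic acid (9.17 to 0.463 TPM, -2.80), the cohesin Smc1b (-1.62) and the retinoic acid receptor Rara (-1.59). Crabp1, which binds retinoic acid in the cytoplasm, was higher in the last bin (9.94 to 84.3 TPM, 2.96). The partners of MEIOC and YTHDC2 and the m6A machinery showed a similar picture, with 5 of 17 lower, 2 higher and 10 within 2-fold and a median of -0.16. Rbm46, within 2-fold, is counted on this list and on that of meiotic entry. The methyltransferase Mettl16 (69.9 to 12.5 TPM, -2.39), Igf2bp1 (-1.33) and the m6A reader Ythdf3 (-1.26) were lower, and Upf1 of nonsense-mediated decay (4.71 to 18.8 TPM, 1.80) and Igf2bp2 (1.19) were higher. With TPM per spike-in the medians of both lists were above 0, at 0.07 and 0.56, beside 0.43 over all coding genes tested.

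The meiotic prophase genes, which act after entry, were counted in the same way. Of 36 measured genes 26 were at least 2-fold lower (24.5% of all coding genes tested), 2 were higher and 8 within 2-fold, and their median was -1.46. Dazl, Smc1b, Sycp1 and Sycp3 are on this list and on that of meiotic entry, and Dazl and Smc1b are counted among the lower genes of both. Rec8 is on both lists too, but with a mean under 1 TPM it is counted in neither. Spata22 (-4.17), Spo11, which makes the meiotic DNA breaks (64.5 to 2.88 TPM, -4.08), and Meiob (190.4 to 12.0 TPM, -3.88) led the losses. Mei4 (1.09) and Rec114 (1.03), which assist Spo11, were the highest in the other direction. With TPM per spike-in 13 of the 36 were 2-fold lower, beside 11.1% of all coding genes tested, and the median was -0.71 beside 0.43.

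**Figure D5:**
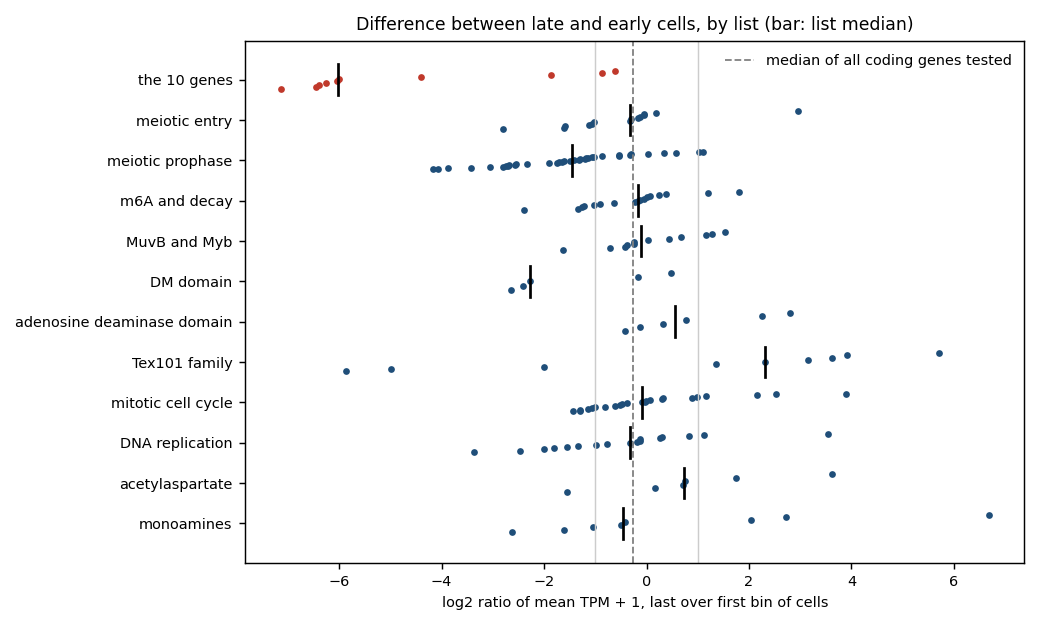
The log2 ratio of mean TPM + 1 in the last over the first bin (x axis) for the 10 genes (red) and for the genes of related lists with a mean of at least 1 TPM (blue), 1 point per gene. Black bars are list medians, the dashed line is the median of all coding genes tested (-0.26) and grey lines mark 2-fold, and 7 of the 10 genes lie left of -4.

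The relatives of the genes differed among themselves, and their counts stand beside 24.5% lower and 16% higher of all coding genes tested. Among the DM domain genes besides Dmrtc2, 3 of 5 were 2-fold lower, Dmrt1 (7.49 to 0.362 TPM, -2.64), Dmrtc1c2 (-2.41) and Dmrtc1c1 (264 to 54.04 TPM, -2.27), while Dmrtb1 was within 2-fold at 0.47 and the list median was -2.27. Of the 12 genes of the MuvB complex and its MYB and E2F partners, which share a domain or targets with tesmin, 1 was lower (Rbl1, -1.64) and 3 higher, led by E2f5 (1.53) and Mybl2 (1.28), with a median of -0.11 (0.68 with TPM per spike-in). None of 6 genes with an adenosine deaminase domain besides Adad1 was 2-fold lower. Adad2, the closest in kind, had means of 113.1, 213, 214, 179.6 and 84.3 TPM, and Adat3 (2.80) and Adarb2 (2.25) were higher, with a list median of 0.55. The family and partners of Tex101 split. Lypd4 (-5.86), Ly6k, which acts with TEX101 in the testis (412 to 12.0 TPM, -4.99), and Dpep3 (-2.01) were lower, whereas 6 of 9 were higher, led by Pinlyp (0.521 to 78.9 TPM, 5.72) and Ly6a (3.92), so that the median was 2.31. Lypd4 ended at 0.00908 TPM, so its ratio depends on the 1 TPM added.

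Top2a was compared with other genes of the cell cycle. Of 23 mitotic genes 6 were 2-fold lower, 4 higher and 13 within 2-fold, with a median of -0.09, which is near the 24.5% lower and 16% higher of all coding genes tested. Ccnb2 (-1.43), the spindle motor Kif11 (-1.31) and the paralog Top2b (30.2 to 11.7 TPM, -1.29) had the largest losses. Ube2c of the anaphase-promoting complex (111.3 to 1663 TPM, 3.89) and the kinase Aurkb (4.83 to 32.8 TPM, 2.54) were the most raised. Among 17 genes of DNA replication 6 were lower and 2 higher, beside the same shares, with a median of -0.32, where the S-phase cyclin Ccne2 (177 to 16.3 TPM, -3.37), Cdc45 (-2.47) and Mcm6 (-2.00) were lower and Tyms (3.54) and Gins2 (1.12) higher. With TPM per spike-in, which left 11.1% of all coding genes tested 2-fold lower and 31.5% higher, no mitotic gene was lower and 7 were higher. The medians of the mitotic and replication lists were then 0.58 and 0.04, beside 0.43 over all.

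The metabolic genes around Aspa and Maoa differed among themselves, again beside 24.5% lower and 16% higher of all coding genes tested. Of 6 measured genes of acetylaspartate metabolism only Acss2, which turns acetate into acetyl-CoA, was 2-fold lower (36.7 to 11.9 TPM, -1.55), and Naalad2 (3.61) and Rimkla (1.75) were higher, with a median of 0.73. Of 8 monoamine genes 3 were lower and 3 higher, with a median of -0.46. Ddc, the decarboxylase of dopamine and serotonin synthesis (8.56 to 0.552 TPM, -2.62), was lower with Maoa. Th, the rate-limiting enzyme of dopamine synthesis, went the opposite way with means of 0.054, 9.70, 46.8, 86.8 and 107.5 TPM, a log2 ratio of 6.69, and Aldh2 (2.73) was higher as well. The median of this list was 0.30 with reads scaled to the same total.

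The genes most like the 10 across these cells were taken as those with the highest mean Spearman's rho with them among 11006 coding genes. Ccnb3, a cyclin of meiosis, came first with a mean rho of 0.52, and its mean fell from 403 to 2.40 TPM, a log2 ratio of -6.90. Scml1 (0.45), Hormad1 (0.44), Tktl1 (0.44), Dld (0.43), Hspa5, Eif4a2, Taf9b, Ddx5 and Iqcb1 followed, the last with 0.42. Ccnb3 was also the closest to Meioc (rho of 0.64), Dmrtc2 (0.71) and Adad1 (0.71), and Tktl1 to Maoa (0.74) and Aspa (0.58). Tex101 was most like Hspa5 (0.75) and Spint2 (0.73), and Mtl5 most like H2-D1 (0.56) and Fbxo6 (0.52). Ythdc2 was most like Tob1 (0.45) and Top2a most like Zfp672 (0.43), whereas for Stra8 the highest value was 0.36 with Zfp458.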

How the data were processed

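RNA of 146 single cells picked as germ cells was sequenced by Smart-seq2. The authors quantified the reads with Salmon against mm10 with spike-in sequences added (per the labels and the study's methods; the annotation is not given in the sources used here) and deposited, for each gene symbol, TPM, an estimated count of reads and the gene length used. TPM of a cell share 1 total over genes and spike-ins. Deposited estimated counts are not normalized and need not be whole.

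The 10 genes and all lists were chosen with earlier results of these data known. Cells with under 1 TPM of Ddx4 were left out. The cell order is the first principal component (36.3% of variance) of 20 genes, Taf4b and those the study names for its clustering, after log normalization and scaling, and steps kept at least 10 cells on each side. Ratios added 1 TPM, and tested genes were coding with a mean of at least 1 TPM (9 of the 10 passed). Named genes are the 10, their neighbours, the 3 largest losses and 2 largest rises of each list and the genes most like them. Genes named outside that rule, after their values were seen, are Dmrtb1, Adad2, the ordering genes and the cell type markers named with a value. Rbm46, Rec8 and Sycp1 are named only as shared between lists. Exact (Clopper-Pearson) 95% intervals cover counting error only. All cells are 1 sample, so no test was made. Libraries with a correlation over 0.9 were taken as near copies and kept. Alternatives were other orders, scalings, thresholds and cells. Python 3.11.15, pandas 2.3.3, NumPy 2.4.6, SciPy 1.17.1 and scanpy 1.11.5 were used, and the calculations were tested on simulated data. Promoter sequences are from RefSeq (GRCm38.p6) and positions from GENCODE M21.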

Additional observations from a re-analysis of the deposited data

Results flagged for a closer look

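The library left out for having no Ddx4 held reads of several of the 10 genes, a signal in data outside the comparisons. Its estimated counts were 208 for Dmrtc2 (98.7 TPM), 433 for Maoa (67.9 TPM), 212 for Aspa (32.8 TPM) and 20.1 for Top2a (4.73 TPM), while Meioc and Ythdc2 had none and Tex101 had 1. It also had 222 TPM of Col1a2 and 82.4 TPM of Kitl, markers of stroma and pregranulosa cells, with Foxl2 and Col1a1 at 0. What kind of cell it came from was not tested.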

How the results depend on the processing

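The count of genes at least 2-fold lower was 8, and 8 or 9 under the other orders, scalings, pseudocount, average and bins, with Ythdc2 or Stra8 added in those at 9. All 45 pairs of genes, 36 of them without Stra8, whose step could not be placed, were ordered by the step on log2(TPM + 1), and between 32 and 45 kept their order in the other settings except 1 (28 to 36 of the 36). With the median position of the cells on in place of a step, 17 of 45 did and 17 of the 36, a measure that also counts late cells with the gene on. Full losses numbered 5, and 4 to 6 elsewhere except at a limit of 0.1 TPM, where traces count as on and 2 met the limits. With 1 cell left out in turn these counts were 8 to 9, 35 to 45 and 5 to 5. In alternatives chosen after seeing the data they were 8, 43 and 5 without the cell with the most globin, 8, 44 and 5 without the second library of each near-copy pair, and 8, 43 and 5 with an order that left out Taf4b. The log2 ratio of Stra8, which was not called, ranged from -1.62 to 0.27. Of the other values 242 kept within their limits and 38 moved, Top2a, Maoa and Stra8 positions among them, and the cause was not tested. Without a filter on low values 18.6% of coding genes were 2-fold lower, with TPM per spike-in 11.1%.

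No paired analysis was possible because the labels give 1 group of cells. With no animal named, the spread between pups is unknown, and 29 cells per bin limit a share to wide intervals. The order of cells is inferred from transcripts and is not time.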
